A study of Mus musculus with 34 samples.

Results

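The Kruppel-like factors described here were 10 genes, Klf2, Klf3, Klf4, Klf5, Klf6, Klf9, Klf10, Klf11, Klf13 and Klf15, taken by gene symbol from 2 expression tables of mouse heart left ventricle. All 10 were found in both, among 14552 genes in the first table and 17406 in the second. All mice were CFW, an outbred stock, and myocardial infarction (MI) was made by tying off the left anterior descending coronary artery for good. The methods give the tissue of the hearts without modRNA as a piece of the ischemic area, or of the matching area in sham. Poly(A) RNA was sequenced, and the values are CPM, a gene's share of the reads of its library after scaling by the authors.

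The first table held 10 libraries of hearts that received no modRNA: 3 shams, 3 hearts at 4 h and 4 hearts at 24 h after MI. Titles and methods call the 3 a sham operation, while another label field gives them as not operated. The second table held 24 libraries: 2 shams labelled 4 h, and hearts with MI given modified mRNA (modRNA, synthetic mRNA with modified bases) in the border zone right after ligation. The modRNA was Luc (luciferase, a firefly enzyme used as the control cargo) or AC, with 4 and 4 hearts at 4 h, 3 and 3 at 24 h, and 4 and 4 at 48 h. The labels do not expand AC. Asah1, which encodes acid ceramidase, lay at 5296 to 13700 CPM in AC hearts at 4 h, 104 to 305 CPM at 24 h and 42.5 to 112 CPM at 48 h, against 21.4 to 32.9 CPM in all Luc and sham libraries of that table. Neither the mice's age nor their sex is given in the labels. Each table had been scaled on its own, so levels and tests stay within a table, and every value set across them is a side-by-side reading without a test.

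Kruppel-like factors are zinc finger proteins that bind GC-rich and CACCC sequences in promoters through a shared DNA-binding end, and differ in the rest of the protein. Klf2 and Klf4 keep endothelium quiet under blood flow, Klf5, Klf6 and Klf10 are known for growth, injury and transforming growth factor beta (TGF-beta) responses, and Klf9, Klf13 and Klf15 respond to glucocorticoids. Klf15 in the heart muscle cell is known for raising genes of fat, amino acid and glucose use and of cardiac ion current rhythm, and for restraining growth. Klf3 is a repressor that works through CtBP proteins, and Klf10, Klf11, Klf9 and Klf13 repress through Sin3 and histone deacetylases.

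RefSeq promoter windows of 8 of the 10 genes, from GRCm38.p6 and running from 250 bases before to 50 bases after the start, were searched on both strands for 10 motifs. Klf5 and Klf10 had no window. Shown are the motifs found in a single member, and the E-box (CACGTG) of 2 members. These are, of the 8 with a window, the member that rose most and the one that fell most at 24 h after MI. Each stretch is 30 bases 5′ to 3′ on the gene's strand, with the motif in capitals.
Klf2, MEF2 site, chr8:72318934-72318963, plus strand: tataccgcggCTAAATTTAGgctgagcccg
Klf9, AP-1 (TGANTCA), chr19:23141125-23141154, plus strand: agtaaacagagtTGAATCAccctccccact
Klf6, E-box, chr13:5861434-5861463, plus strand: ctccaagctggtCACGTGgggggagaaggg
Klf15, E-box 1, chr6:90462336-90462365, plus strand: ctcccgaggtccCACGTGgtctgcacttcg
Klf15, E-box 2, chr6:90462392-90462421, plus strand: tagaacccgtctCACGTGcgcatcggagga
Klf15, E-box 3, chr6:90462561-90462590, plus strand: cgcccgcggcgtCACGTGagcggccggaga

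A MEF2 site was found in Klf2 alone of the 8, and in 0.557% of all 32851 windows. An AP-1 motif was found in Klf9 alone, against 7.81% of all windows, and the E-box in Klf4, Klf6, Klf11 and Klf15, against 7.15%. The KLF and Sp core CCNCNCCC, which these proteins themselves bind, was in 7 of 8, all but Klf9, against 49.5% of all windows. The cAMP response part TGACG was in 6 of 8 (Klf2, Klf3, Klf4, Klf9, Klf13 and Klf15; 20.8% of all), and the short glucocorticoid motif GNACA in 3 of 8 (Klf2, Klf6 and Klf13; 86.4% of all). TGACGTCA, the CArG box, the D-box TTANNTAA and TATAAA were in none of the 8, and in 1.79%, 1.63%, 6.0% and 13.6% of all windows. TGACG is part of TGACGTCA, and several KLF and Sp cores overlap each other. A match describes the letters of the window and no binding was measured.

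Libraries held an estimated 12553440 to 18952669 reads in the first table and 17091513 to 22192765 in the second, read back from the smallest steps in the values. The deepest member, Klf6, had 1117 to 8831 reads per library, while Klf5 had 4 to 100 in the first table and 3 to 32 in the second. All 8 heart muscle cell markers were above 0, with summed levels of 40650 to 42010 CPM in the first table's shams. Within groups, libraries of the first table correlated at 0.959 to 0.992 over all genes. Of the 4 Luc hearts at 48 h, numbers 1 and 3 correlated at 0.984 with each other and at 0.945 to 0.969 with numbers 2 and 4. Numbers 2 and 4 correlated at 0.984 with each other and at 0.97 to 0.981 with the AC hearts at 48 h. They were thus closer to those AC hearts than to Luc hearts 1 and 3, which correlated at 0.929 to 0.951 with the same AC hearts. AC heart C at 24 h correlated at 0.958 to 0.963 with the other AC hearts of that time, which reached 0.981 between them. AC hearts 1 and 2 at 4 h correlated at 0.94, the lowest value within a group. Calls that rest on these libraries are given with and without them. The 24 h libraries of the second table carry another kind of title than the rest. The 48 h titles number their libraries anew, apart from the run of numbers shared by the shams and the 4 h hearts. Time after MI and these sets of libraries cannot be told apart. In bulk tissue, fewer cells of a type and less RNA per cell cannot be told apart either.

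Compared per length of transcript, Klf9 and Klf15 had the highest means in the shams of both tables, though not above Klf6 in every sham. In the first table's shams Klf9 stood at 17.9 ± 1.11 CPM per kb of exon (SD, n = 3), Klf15 at 14.1 ± 2.72 and Klf6 at 11.2 ± 0.492. Klf2 and Klf4 followed at 9.72 ± 0.976 and 9.34 ± 1.55, which differ by less than their spread. Klf13, Klf10, Klf3 and Klf11 lay between 5.29 and 2.68 CPM per kb, and Klf5 was near the floor at 0.0404 ± 0.0189. At 24 h after MI the order had turned: Klf6 led at 50.4 ± 13.5 CPM per kb (n = 4), Klf2 was next at 14.2 ± 2.49, Klf9 had dropped to 7.56 ± 2.70 and Klf15 to 4.21 ± 1.54. In the second table's shams Klf15 (21.7 ± 10.4, n = 2) and Klf9 (19.5 ± 6.22) had the highest means, with Klf6 at 15.9 ± 0.364, and these 3 differ by less than the spread of the 2 shams.

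**Figure D1:**
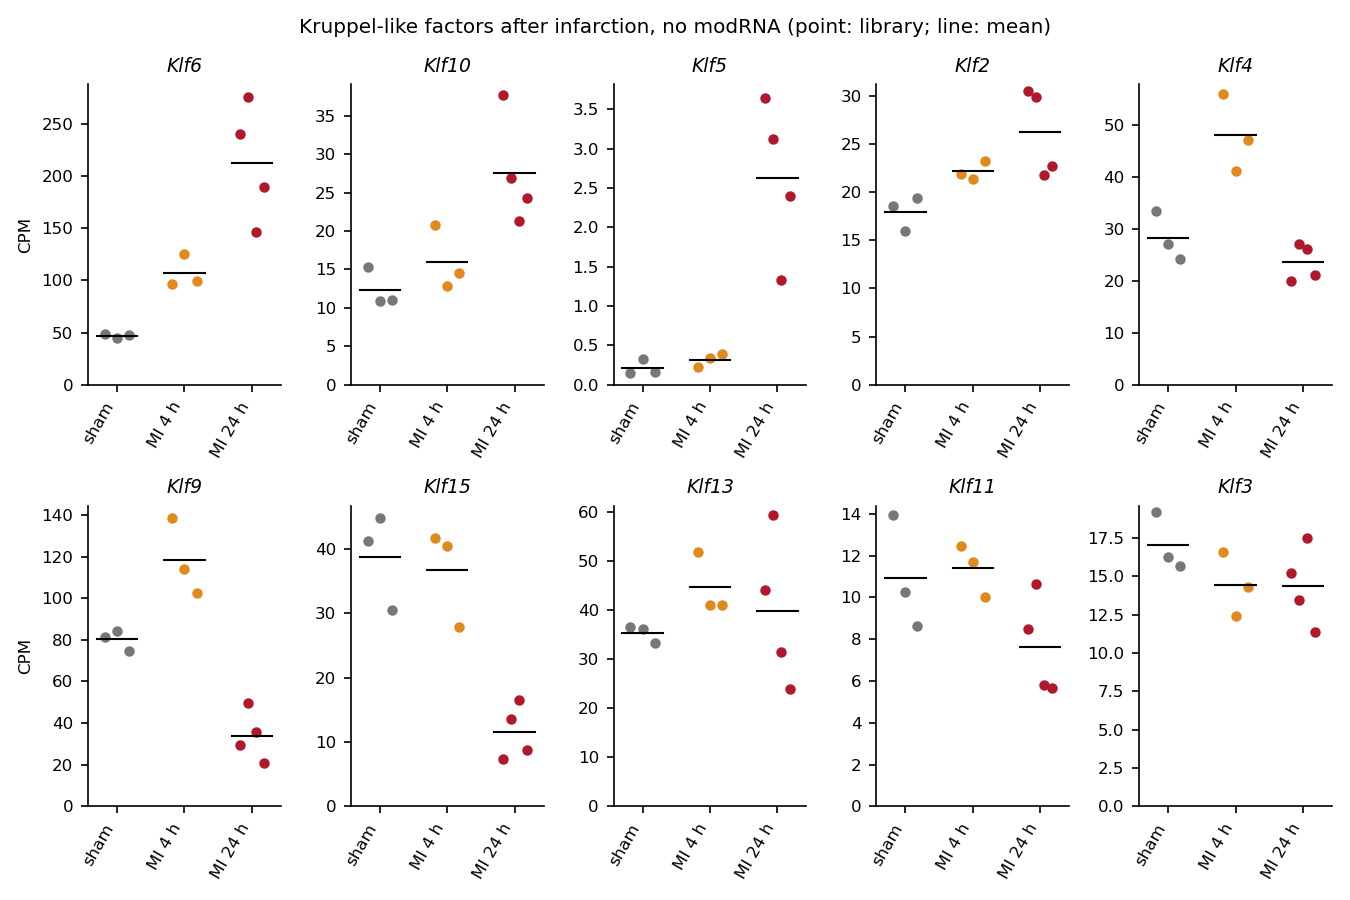
Level of each Kruppel-like factor in CPM (vertical axis, from 0) in the 10 libraries without modRNA, by group (horizontal axis), with 1 point per library and a line at the group mean. Klf6 climbs from 45.05 to 49.2 CPM in sham to 146 to 276 CPM at 24 h, while Klf15 goes from 30.5 to 44.9 CPM down to 7.39 to 16.6 CPM.

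The comparison of infarcted with sham hearts asked how ischemia changes the ventricle's mRNA. At 4 h, 2 of the 10 members passed the test, both higher: Klf6 and Klf4. Over all 12487 genes tested, 2.37% passed at that time. At 24 h, 6 of 10 passed, with Klf6, Klf10, Klf5 and Klf2 higher and Klf15 and Klf9 lower, against 66% of all genes (35.6% higher and 30.3% lower). At 4 h 1.55% of all genes were higher and 0.817% lower. The 24 h share is close to the background, so the number of members that passed is no result about them. Groups did not overlap for 28.8% of all genes at 4 h and 64% at 24 h. The median log2 fold change of all genes was -0.03 at 4 h and 0.035 at 24 h.

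Klf6, found at chr13:5861489-5870394 on the plus strand (mm10, as the tables give it), encodes a factor induced by injury in many tissues. It read 49.2, 45.05 and 47.6 CPM in the 3 shams, 96.3, 126 and 99.6 CPM at 4 h, and 240.0, 276, 146 and 189.5 CPM at 24 h. The 3 groups do not overlap, and each step is upward. Its log2 fold change was 1.16 ± 0.20 (SE) at 4 h (q = 0.0124) and 2.11 ± 0.187 at 24 h (q = 3.11e-06), and the 24 h level was also above the 4 h level, by 0.95 ± 0.187 (q = 0.000982). All q-values here are from limma with Benjamini-Hochberg adjustment over all genes. The 4 h call was lost, at nearly the same size, when 4 h heart D (1.04), sham H (1.12) or sham I (1.16) was left out.

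Klf10 (chr15:38291464-38300712, minus strand), also called TGF-beta inducible early gene, is switched on by TGF-beta and represses growth genes. It read 15.3, 10.9 and 10.98 CPM in sham, 20.8, 12.8 and 14.5 CPM at 4 h, and 37.7, 26.9, 21.3 and 24.3 CPM at 24 h. The 24 h hearts were all above the other 2 groups, while the 4 h hearts overlapped the shams. Klf10 rose by 1.077 ± 0.209 on the log2 scale at 24 h (q = 0.000813). The 4 h difference of 0.34 ± 0.223 did not pass (q = 0.498).

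Klf5 (chr14:99298691-99313410, plus strand) is known in smooth muscle and fibroblasts as a driver of growth after injury, and it was the lowest member. It read 0.145, 0.323 and 0.163 CPM in sham and 0.226, 0.335 and 0.387 CPM at 4 h, a handful of reads per library, and 3.64, 3.13, 1.33 and 2.40 CPM at 24 h. The 24 h hearts were all above the rest, and heart G was the lowest of them. The log2 fold change of CPM plus 1 was 1.54 ± 0.21 at 24 h (q = 6.8e-05), a scale that understates the change of so low a gene, whose mean went from 0.210 to 2.62 CPM. With a mean of 1.21 CPM over the table it entered the test only through its 24 h level, so this call is no independent evidence of a difference.

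TGF-beta response genes moved alongside. Of 10 listed, 8 rose at 24 h and none fell, with a median log2 fold change of 0.95 against 0.035 for all genes. Tgif1, a corepressor of the pathway, rose by 2.36 ± 0.19 (q = 1.71e-06). Of 6 genes known as raised by KLF5, 3 rose and 2 fell at 24 h. Pdgfa, a growth factor, rose by 0.99 ± 0.148 (q = 0.000131) and Ppara, a nuclear receptor of fat oxidation, fell by 2.16 on the log2 scale ± 0.252 (q = 2.11e-05).

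Klf15 (chr6:90462626-90475210, plus strand) and Klf9 (chr19:23141226-23166912, plus strand) went the other way. Klf15 read 41.3, 44.9 and 30.5 CPM in sham and 41.7, 40.5 and 27.95 CPM at 4 h, which overlap. At 24 h it read 7.39, 13.6, 16.6 and 8.83 CPM, below every other library of the table. It fell by 1.71 on the log2 scale ± 0.25 between sham and 24 h (q = 0.000112) and by 1.62 between 4 h and 24 h (SE 0.25, q = 0.000181).

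Klf9, a factor known to be raised by glucocorticoid and thyroid hormone, read 81.5, 84.4 and 74.7 CPM in sham, 138, 114 and 102 CPM at 4 h, and 29.3, 49.7, 35.6 and 20.9 CPM at 24 h. The 4 h hearts were above all shams and the 24 h hearts below all of them. The 4 h difference of 0.55 ± 0.241 did not pass the test (q = 0.287), the fall of 1.28 on the log2 scale at 24 h did (log2 fold change -1.28 ± 0.225, q = 0.000418), and the fall between 4 h and 24 h was the steepest of the 10 members, at -1.83 ± 0.225 (q = 3.83e-05).

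Of 9 genes known as raised by KLF15 in heart, muscle or liver, 8 fell at 24 h and none rose, with a median of -1.32, and 30.3% of all genes fell. Kcnip2, a subunit of the potassium channel that shapes early repolarisation, fell by 2.61 on the log2 scale ± 0.203 (q = 1.42e-06), and Slc2a4, the insulin-driven glucose transporter, fell by 2.01 on the log2 scale ± 0.209 (q = 9.57e-06). At 4 h none of the 9 passed. Of 4 genes known as lowered by KLF15 in heart, 3 rose and 1 fell. Nppb, the brain natriuretic peptide gene, rose by 4.40 ± 0.417 (q = 4.77e-06) and Ctgf, a matrix growth factor, by 3.43 ± 0.267 (q = 1.4e-06), while Myh7, the slow myosin heavy chain, was -0.68 ± 0.27 (q = 0.0424).

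Cell type markers differed between the same groups. The summed level of the 8 heart muscle cell markers was 40650 to 42010 CPM in sham, 40230 to 43710 CPM at 4 h and 15550 to 25590 CPM at 24 h, when 4 of the 8 fell (median -0.56). The 8 neutrophil and monocyte markers, all of which rose at 24 h, summed to 56.2 to 117 CPM in sham and 516 to 2186 CPM at 24 h. Fibroblast markers summed to 773 to 835 CPM in sham, 991 to 1188 CPM at 4 h and 441 to 801 CPM at 24 h, when 4 of 8 fell and 1 rose, and smooth muscle and pericyte markers to 722 to 922 CPM in sham and 327 to 484 CPM at 24 h. Red cell and atrial markers summed to 155 to 236 CPM in sham and 419 to 714.5 CPM at 4 h, when 3 of 4 tested rose. Their part in the members' changes was not tested.

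In these hearts without modRNA most listed glucocorticoid receptor targets did not fall with Klf9 and Klf15 at 24 h. Of 8 listed, which count the receptor gene Nr3c1, 5 rose and 1 fell, with a median of 1.21. Cdkn1a, a cell cycle inhibitor, rose by 4.03 ± 0.512 (q = 3.98e-05) and Errfi1, a brake on growth factor receptors, by 2.79 ± 0.251 (q = 3.37e-06), and the receptor gene Nr3c1 itself was -0.42 ± 0.157 (q = 0.0356). Of 10 clock output genes, 6 fell and 2 rose. Hlf fell by 2.28 on the log2 scale ± 0.27 (q = 2.41e-05) and Dbp fell by 2.23 on the log2 scale ± 0.578 (q = 0.00515), both transcription factors of the daily cycle, and Per1, a clock gene that is also in the glucocorticoid list, rose by 1.57 ± 0.427 (q = 0.00704). The clock hour of collection is not in the labels.

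Klf2 and Klf4, the endothelial pair, took different courses. Klf4 (chr4:55527137-55532476, minus strand) read 33.5, 27.1 and 24.3 CPM in sham, 56.0, 41.3 and 47.1 CPM at 4 h, and 20, 27.1, 26.1 and 21.1 CPM at 24 h. It was high at 4 h in all 3 hearts, and at 24 h it overlapped the shams. It rose by 0.75 ± 0.16 at 4 h (q = 0.0355), fell by 0.999 on the log2 scale between 4 h and 24 h (q = 0.000152), and stood at -0.25 ± 0.15 from sham at 24 h (q = 0.157). Leaving out any 1 library of the comparison other than sham D took the 4 h call past the threshold, with values of 0.63 to 0.85.

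Klf2 (chr8:72319062-72321655, plus strand) read 18.5, 15.9 and 19.4 CPM in sham, 21.9, 21.4 and 23.2 CPM at 4 h, and 30.4, 29.9, 21.8 and 22.7 CPM at 24 h. Both MI groups were above all shams. The 4 h difference of 0.29 ± 0.142 did not pass (q = 0.334), and Klf2 rose by 0.51 ± 0.132 at 24 h (q = 0.00521).

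Among genes upstream of this pair, none of the 7 listed for the ERK5 kinase and MEF2 pathway passed at 4 h. At 24 h Mapk7, which encodes ERK5, rose by 1.28 ± 0.138 (q = 1.24e-05), and Mef2c fell by 1.198 on the log2 scale ± 0.201 (q = 0.000304) with Mef2a at -1.10 ± 0.157 (q = 9.18e-05), 2 rising and 4 falling in all. Endothelial genes known as raised by KLF2 or KLF4 split, with 3 of 8 higher and 4 lower at 24 h. Thbd, the thrombin receptor that limits clotting, rose by 1.85 ± 0.181 (q = 5.99e-06) and Nrp1, a co-receptor of vascular growth factor, fell by 1.28 on the log2 scale ± 0.238 (q = 0.000615). Of endothelial genes known as lowered by the pair, 4 of 8 rose at 4 h and 7 of 8 at 24 h, and none fell, with a median of 2.08 at 24 h. Sele, the adhesion molecule for leukocytes, rose by 3.23 ± 0.22 at 4 h (q = 1.39e-05) and Ccl2, a monocyte chemokine, by 5.30 ± 0.174 at 24 h (q = 1.6e-08). The 8 endothelial markers summed to 588 to 607 CPM in sham, 555 to 762.5 CPM at 4 h and 463 to 686 CPM at 24 h.

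Klf3, Klf11 and Klf13 did not pass against sham at either time. Klf3 (chr5:64803523-64830130, plus strand) read 15.7 to 19.2 CPM in sham and 11.4 to 17.5 CPM at 24 h, and shares 404 exon bases with an opposite-strand transcript, whose reads may be mixed with its own because strand use in the counting is not stated. Klf11 (chr12:24651371-24662783, plus strand), the second TGF-beta inducible member, read 8.64 to 14.0 CPM in sham, 10.0 to 12.5 CPM at 4 h and 5.67 to 10.6 CPM at 24 h. Its level at 24 h against 4 h was -0.56 ± 0.21 on the log2 scale (q = 0.0368) although the groups overlap, and the call was lost without 24 h heart G (-0.45) or H (-0.44) or 4 h heart C (-0.49) or D (-0.54). Klf13 (chr7:63886351-63938916, minus strand), known from T cells and heart development, read 33.3 to 36.5 CPM in sham and 41.1 to 51.7 CPM at 4 h, and spread from 24.0 to 59.4 CPM at 24 h.

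Between 4 h and 24 h, 7 of 10 members differed (Klf5, Klf6 and Klf10 higher, Klf4, Klf9, Klf11 and Klf15 lower), against 63.9% of all genes (37.2% higher, 26.7% lower, and 62.2% with groups that do not overlap). Klf5 entered this test, too, only through its 24 h level, so its place in the count is no independent evidence. Of 7 other KLF and Sp genes tested at 24 h, Klf16 rose by 1.22 ± 0.163 (q = 5.87e-05) and Sp3 by 0.28 ± 0.088 (q = 0.0157), and Klf12 fell by 1.38 on the log2 scale ± 0.212 (q = 0.000156) with Sp4 at -0.96 ± 0.137 (q = 9.57e-05). Of 9 corepressors and coactivators 3 rose, led by Hdac1, a histone deacetylase (0.76 ± 0.12, q = 0.000193), and Ctbp2, the partner of KLF3 (0.71 ± 0.106, q = 0.000124). Of 6 ubiquitin ligases of KLF proteins 2 rose and 3 fell.

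**Figure D2:**
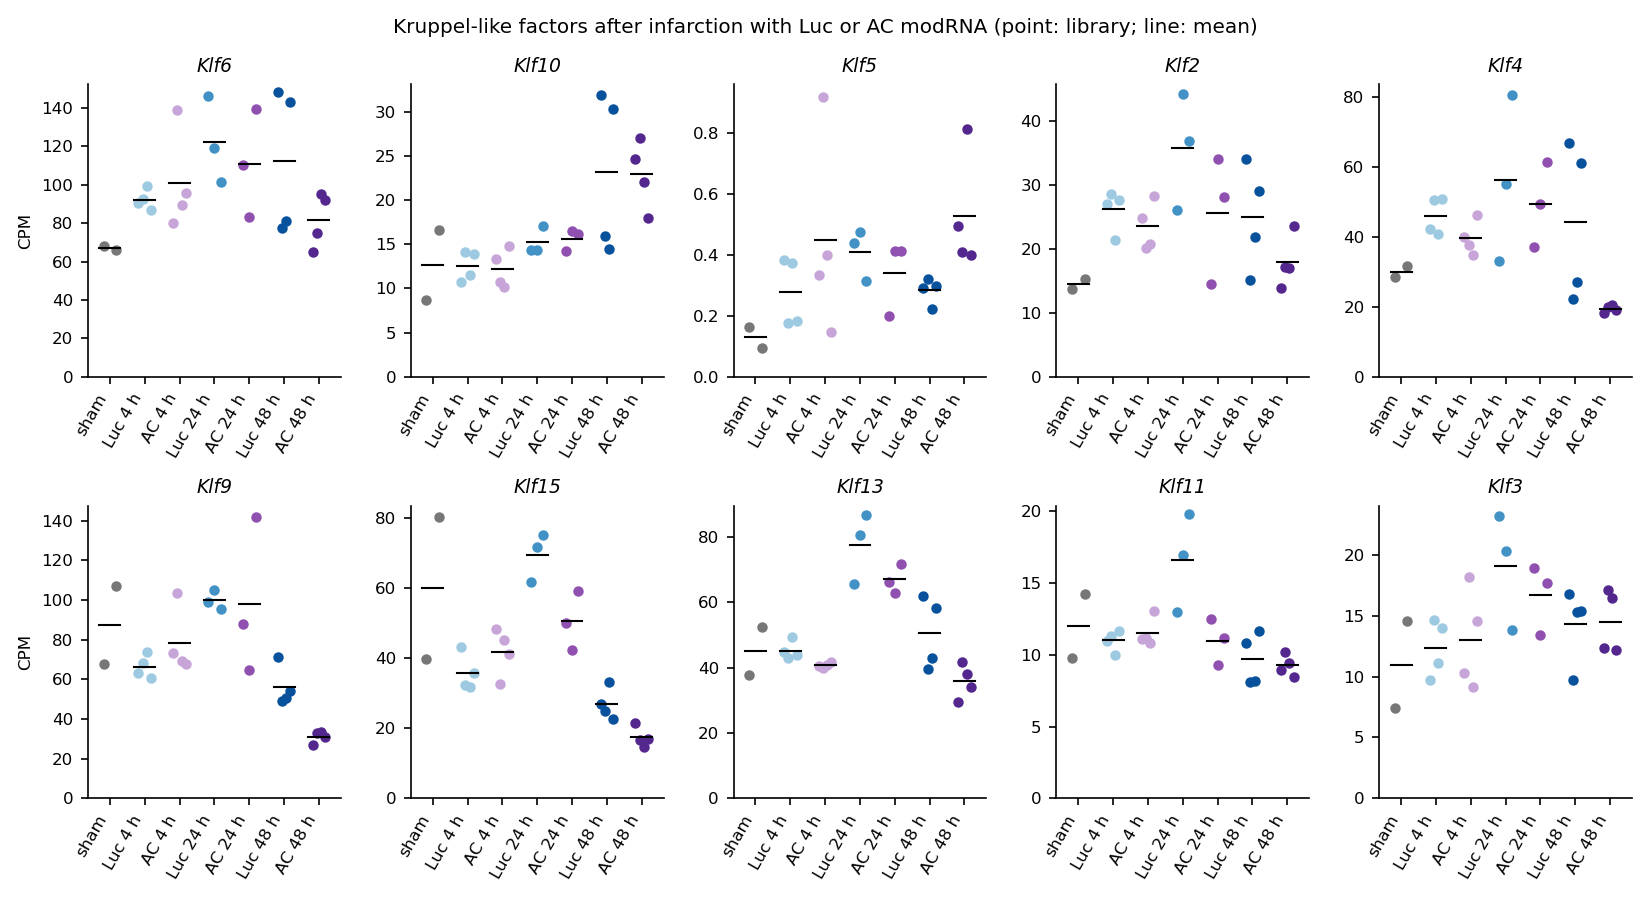
Level of each Kruppel-like factor in CPM (vertical axis, from 0) in the 24 libraries of the modRNA experiment, by group (horizontal axis), with 1 point per library and a line at the group mean. Klf9 and Klf15 have their highest group means in the Luc hearts at 24 h and their lowest in the AC hearts at 48 h, where Klf9 lies at 26.9 to 33.2 CPM and Klf15 at 14.7 to 21.4 CPM.

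In the modRNA experiment the Luc hearts against the 2 shams of that table asked what MI with a control cargo does over time. Both shams are labelled 4 h, so the Luc hearts at 24 h and 48 h had no sham of their time. Klf5 stayed under 1 CPM in all 24 libraries (0.0952 to 0.919) and was not tested, which left 9 members. At 4 h none of the 9 passed, where 1.55% of all genes did (1.25% higher, 0.295% lower). At an unadjusted p under 0.05, 1710 of the 12555 genes and 2 members passed, Klf2 at 0.81 ± 0.293 (q = 0.202) and Klf15 at -0.65 ± 0.224 (q = 0.176). At 24 h 4 of 9 passed, all higher, against 34.1% of all genes in either direction, 25.3% higher and 8.79% lower. At 48 h 2 of 9 passed, 1 each way, against 30.1% (13.7% higher, 16.4% lower). Groups did not overlap for 32.5%, 55.9% and 40.8% of all genes at the 3 times.

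At 24 h the members that rose were Klf2, Klf6, Klf3 and Klf13. Klf2 read 13.7 and 15.2 CPM in sham and 26.1, 44.3 and 37.0 CPM in the Luc hearts, a rise of 1.22 ± 0.309 (q = 0.00434). Klf13 read 37.8 and 52.4 CPM in sham and 65.5, 80.8 and 86.7 CPM in Luc, a rise of 0.78 ± 0.185 (q = 0.00268). Both lie clear of the shams. Klf6 read 68.2 and 66.1 CPM in sham and 146, 119 and 101 CPM in Luc (0.84 ± 0.271, q = 0.0204), and Klf3 7.40 and 14.5 against 23.2, 20.3 and 13.8 CPM, which overlap (0.79 ± 0.293, q = 0.0418).

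These calls rest on few shams and on the scaling. Without sham 1, when the single sham left is assumed to vary like the other groups, none of the 4 passed (Klf2 1.15, Klf6 0.86, Klf13 0.55, Klf3 0.34). Klf6 also lost its call without sham 2 (0.82) or Luc heart A (0.70), and Klf3 without Luc heart A (0.64) or C (0.73). With either other scaling of the libraries Klf6 and Klf3 did not pass. All genes together had a median shift of 0.158 in this comparison, -0.112 with every library brought to an equal total and -0.011 with median-ratio factors, and 74.2% of calls over all genes were higher, against 42.5% and 53.4% under those scalings.

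The 2 members that fell at 24 h without modRNA were not low in the 24 h Luc or AC hearts. Klf15 read 61.7, 71.5 and 75.2 CPM in Luc and 49.9, 42.4 and 59.0 CPM in AC at 24 h, against 39.6 and 80.03 CPM in the shams of that table. Klf9 read 98.9, 105 and 95.6 CPM in Luc and 88.1, 64.6 and 142 CPM in AC, against 67.6 and 107 CPM. The Luc values lie inside the span of the shams for Klf9 and Klf15, and the intervals of the difference were -0.284 to 0.737 and -0.195 to 0.781 on the log2 scale (95%). For Klf15 the upper end of that span is sham 2 alone. Without sham 2 the Klf15 difference was 0.79, with only 1 sham left. Against the Luc hearts at 4 h, Klf15 was higher by 0.95 ± 0.197 (q = 0.00113) and Klf9 by 0.58 ± 0.206 (q = 0.034), with Klf13 (0.76, q = 0.000926) and Klf11 (0.53, q = 0.0129), 4 of 9 against 32.3% of all genes (24.5% higher, 7.8% lower, 48.4% with no overlap). Of the calls over all genes 75.9% were higher, against 48.2% with equal totals and 52.1% with median-ratio factors. Under those scalings Klf15 (0.73 and 0.77) and Klf13 (0.54 and 0.59) still passed, and Klf9 (0.36 and 0.41) and Klf11 (0.33 and 0.37) did not. The Klf9 call was lost without any 1 of the 24 h hearts or without 4 h heart 1, 2 or 4 (0.54 to 0.61), and the Klf11 call without 24 h heart D (0.40).

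The 2 sets of 24 h hearts differed in other listed genes as well. Of the 9 genes known as raised by KLF15, 2 rose and none fell in Luc at 24 h, and the median was 0.40. Fkbp5 and Per1, of the glucocorticoid receptor list, read 166 to 241.5 and 148 to 237 CPM in Luc at 24 h. The shams read 18.8 and 31.4 CPM for Fkbp5 and 32.4 and 84.9 CPM for Per1. Zbtb16, Sgk1, Errfi1 and Cdkn1a also lay above both shams, while Tsc22d3 and Nr3c1 overlapped them. These genes are given after their values were seen. The summed heart muscle cell markers were 51010 to 65670 CPM in Luc at 24 h, above the 42420 and 44010 CPM of the shams, and the neutrophil and monocyte markers 97.6 to 149.5 CPM, against 73.9 and 154 CPM, although 5 of those 8 markers passed as higher. In the first table's 24 h hearts these sums were 15550 to 25590 and 516 to 2186 CPM. Myl7 and Myl4, light chains of atrial myosin, were higher in Luc at 24 h than in sham by 5.14 ± 0.775 and 4.89 ± 0.854 (q = 3.77e-05 and 0.000183). They are 2 of 6 red cell and atrial markers, whose sum was 571 to 1039 CPM in Luc at 24 h. That overlaps the 185 and 603 CPM of the shams. The sum was higher still at 4 h, at 1674 to 2521 CPM in Luc and 2399 to 10620 CPM in AC. What part cells, site of the piece, modRNA or sequencing set have in the difference between the tables was not tested.

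**Figure D3:**
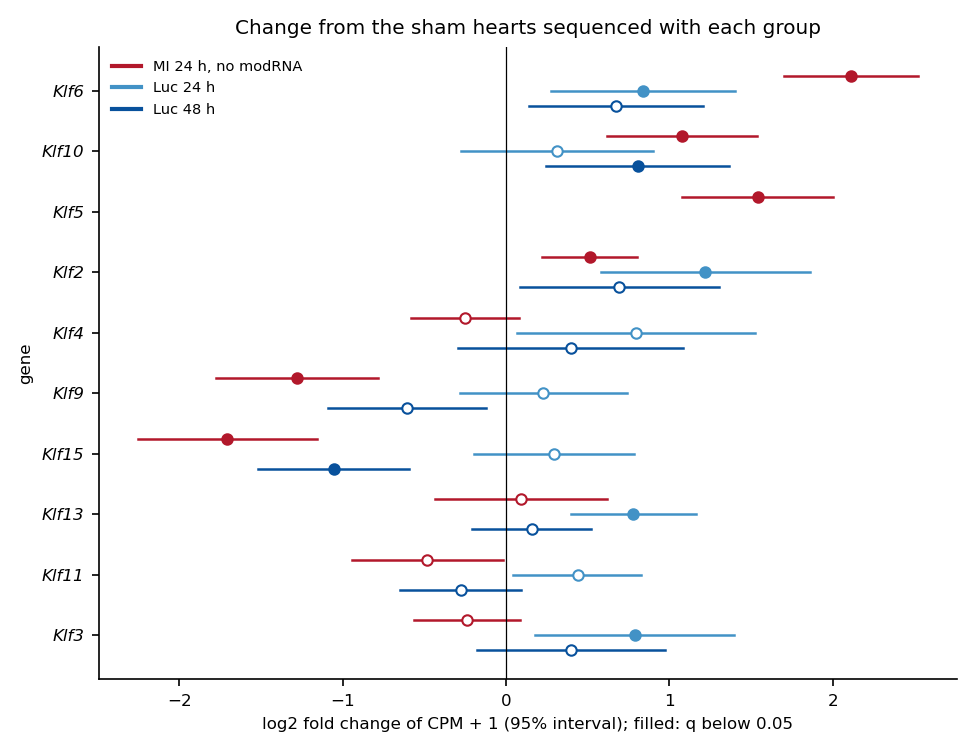
Log2 fold change of CPM plus 1 (horizontal axis) of each Kruppel-like factor (vertical axis) from the shams of the same table, for hearts without modRNA at 24 h and Luc hearts at 24 h and 48 h, with bars for the 95% interval and filled points for q below 0.05. Klf15 stands at -1.71 without modRNA, 0.29 in Luc at 24 h and -1.06 in Luc at 48 h. Klf5 was tested without modRNA only.

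At 48 h after MI Klf15 was low in the Luc hearts too. It read 26.8, 24.98, 22.5 and 33.2 CPM in Luc hearts 1 to 4, below both shams, at -1.06 ± 0.224 (q = 0.00128), and was lower than in Luc at 24 h by 1.35 on the log2 scale (log2 fold change -1.35 ± 0.197, q = 3.65e-05). Without sham 2, whose 80.03 CPM was the highest Klf15 value of the table, the difference from sham was -0.56 and did not pass. Klf9 read 71.4, 49.0, 53.9 and 50.4 CPM, lower than at 24 h by 0.83 (log2 fold change -0.83 ± 0.206, q = 0.003), as were Klf11 (-0.71, q = 0.00129) and Klf13 (-0.62, q = 0.00311). These 4 of 9 compare with 41.9% of all genes (9.32% higher, 32.6% lower, 41% with no overlap), whose median shift was -0.247. With equal totals that median was 0.182 and 77.5% of calls over all genes were higher, against 22.3%, and with median-ratio factors -0.023 and 49.7%. Klf15 passed under both (-0.88 and -1.10), Klf9 (-0.36 and -0.58) and Klf11 (-0.27 and -0.48) under median-ratio factors only, and Klf13 (-0.15 and -0.37) under neither, while Klf10 passed as higher under both (0.95 and 0.73). Without Luc hearts 2 and 4 Klf13 did not pass (-0.36).

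Klf10 was the member that rose from sham at 48 h, by 0.81 ± 0.269 (q = 0.0269). Its Luc values were 31.9, 16.0, 30.4 and 14.4 CPM, against 8.67 and 16.6 CPM in sham. Hearts 1 and 3 held the high values, and without those 2 the difference was 0.31 and did not pass, nor did it without heart 1 (0.63), heart 3 (0.65) or sham 1 (0.37). Over the same 2 pairs Klf4 read 67.0 and 61.0 CPM in hearts 1 and 3 and 22.3 and 27.2 CPM in hearts 2 and 4. Klf6 split likewise, at 148 and 143 against 77.7 and 81.3 CPM.

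**Figure D4:**
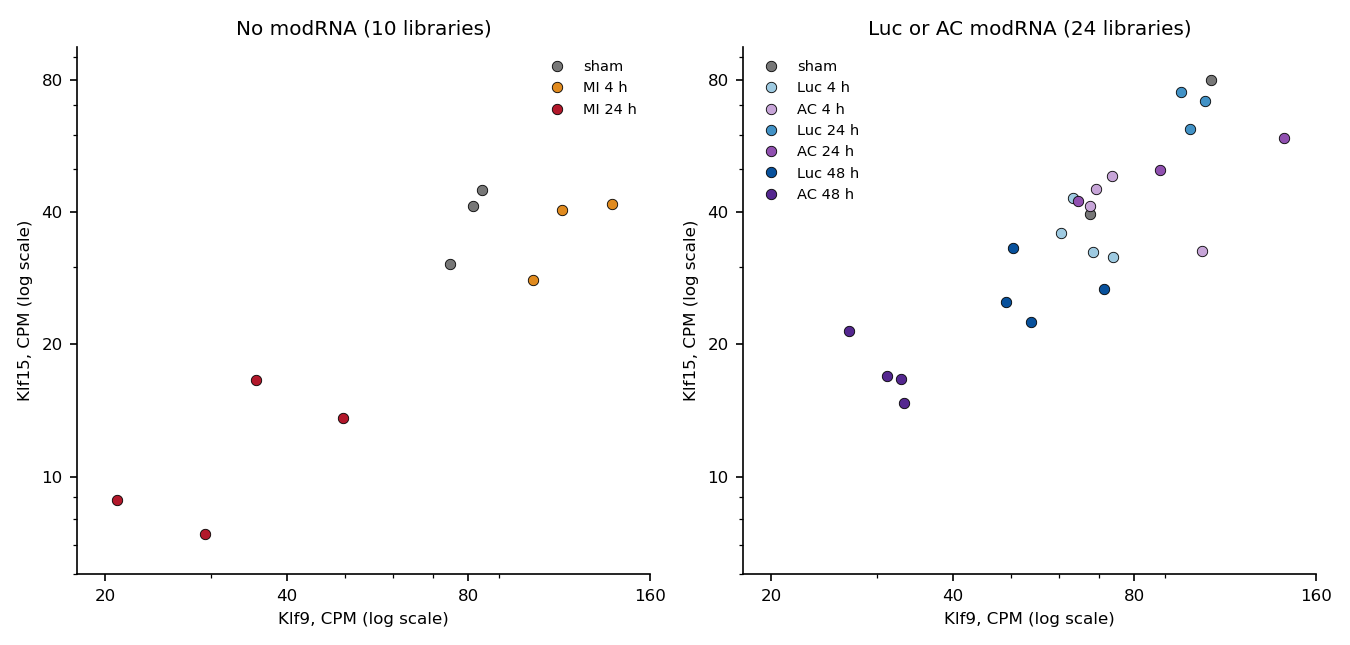
Klf15 (vertical axis, CPM, log scale) against Klf9 (horizontal axis, CPM, log scale), 1 point per library, without modRNA (left) and in the modRNA experiment (right), coloured by group. The uninjected 24 h hearts and the AC hearts at 48 h lie at the lower left of their panels, low in both genes.

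Klf9 and Klf15 ran together over the libraries. The Pearson correlation of their log2 values was 0.914 over the 10 libraries of the first table and 0.86 over the 24 of the second, higher in its smaller value than for any other pair of the 9 members tested in both tables. It is a description across groups that share treatment, time and library scaling, and no pooled test was made. In the first table the correlation joins 4 hearts at 24 h, low in both, with 6 others.

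The comparison of AC with Luc asked what the AC cargo adds at each time. None of the 9 members passed at 4 h or at 24 h, where 0.00796% of all genes did, 1 gene at each time, higher in AC. At an unadjusted p under 0.05, 131 genes at 4 h and 599 at 24 h passed, of the members only Klf11 (-0.54 ± 0.169, q = 0.824) and Klf15 (-0.46 ± 0.211, q = 0.991), both at 24 h and both with groups that do not overlap, as for 9.33% of all genes. Without AC heart C they were -0.44 and -0.35, and no member passed. At 4 h none passed without AC heart 1 or AC heart 2 either, with Klf9 at 0.24 and 0.08 against 0.22 with all hearts. At 4 h only Klf13 had such groups, at 39.9 to 41.6 CPM in AC and 42.8 to 49.5 CPM in Luc, as for 2.02% of all genes. The 95% intervals at 4 h stayed within -0.775 to 0.613 on the log2 scale for all 9. At 48 h 4 of 9 were lower in AC: Klf4, Klf9, Klf15 and Klf13, against 15.3% of all genes called in either direction, 12.1% higher and 3.27% lower.

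Klf9 read 71.4, 49.0, 53.9 and 50.4 CPM in the Luc hearts and 26.9, 32.8, 33.2 and 31.1 CPM in the AC hearts at 48 h. The groups do not overlap, as for 19.1% of all genes, and the difference was -0.82 ± 0.191 (q = 0.00636). Klf15 read 26.8, 24.98, 22.5 and 33.2 CPM in Luc and 21.4, 16.7, 14.7 and 17.0 CPM in AC, again apart, at -0.59 ± 0.183 (q = 0.0313). Both genes were low in every AC heart and the Luc hearts stood close together except Luc 1 for Klf9 and Luc 4 for Klf15.

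Klf4 read 18.2, 19.99, 20.5 and 19.1 CPM in the AC hearts against the split Luc values above, a difference of -0.999 ± 0.272 (q = 0.0172). Klf13 read 61.8, 39.7, 58.2 and 42.9 CPM in Luc and 29.6, 41.9, 37.9 and 34.1 CPM in AC, which overlap, at -0.47 ± 0.143 (q = 0.0286). For Klf4 and Klf13 the high values were those of Luc hearts 1 and 3. Klf5, not tested here, read 0.221 to 0.321 CPM in Luc and 0.401 to 0.814 CPM in AC, a few reads per library.

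Leaving out Luc hearts 1 and 3 ended all 4 calls. The values then were -0.33 for Klf4 (q = 0.532), -0.21 for Klf13, -0.67 for Klf9 (q = 0.126) and -0.70 for Klf15 (q = 0.101), with 2 Luc hearts in the test. With 1 heart left out Klf9 passed each time, Klf4 did not without Luc 1 (-0.75) or 3 (-0.80), Klf13 not without Luc 1 or 3 or AC 1, 4 or 5 (-0.50 to -0.37), and Klf15 not without Luc 1 or 4 or AC 2, 4 or 5 (-0.59 to -0.49). Leaving out hearts 2 and 4 gave 5 calls, with Klf4 at -1.67 (q = 2.9e-05), Klf9 at -0.98 (q = 0.00375), and Klf15 at -0.48 not passing (q = 0.106). Over all genes 2.76% passed without hearts 1 and 3 and 30.4% without hearts 2 and 4. Of calls over all genes 78.7% were higher in AC, and 52.2% under median-ratio scaling, under which these 4 members passed as well.

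**Figure D5:**
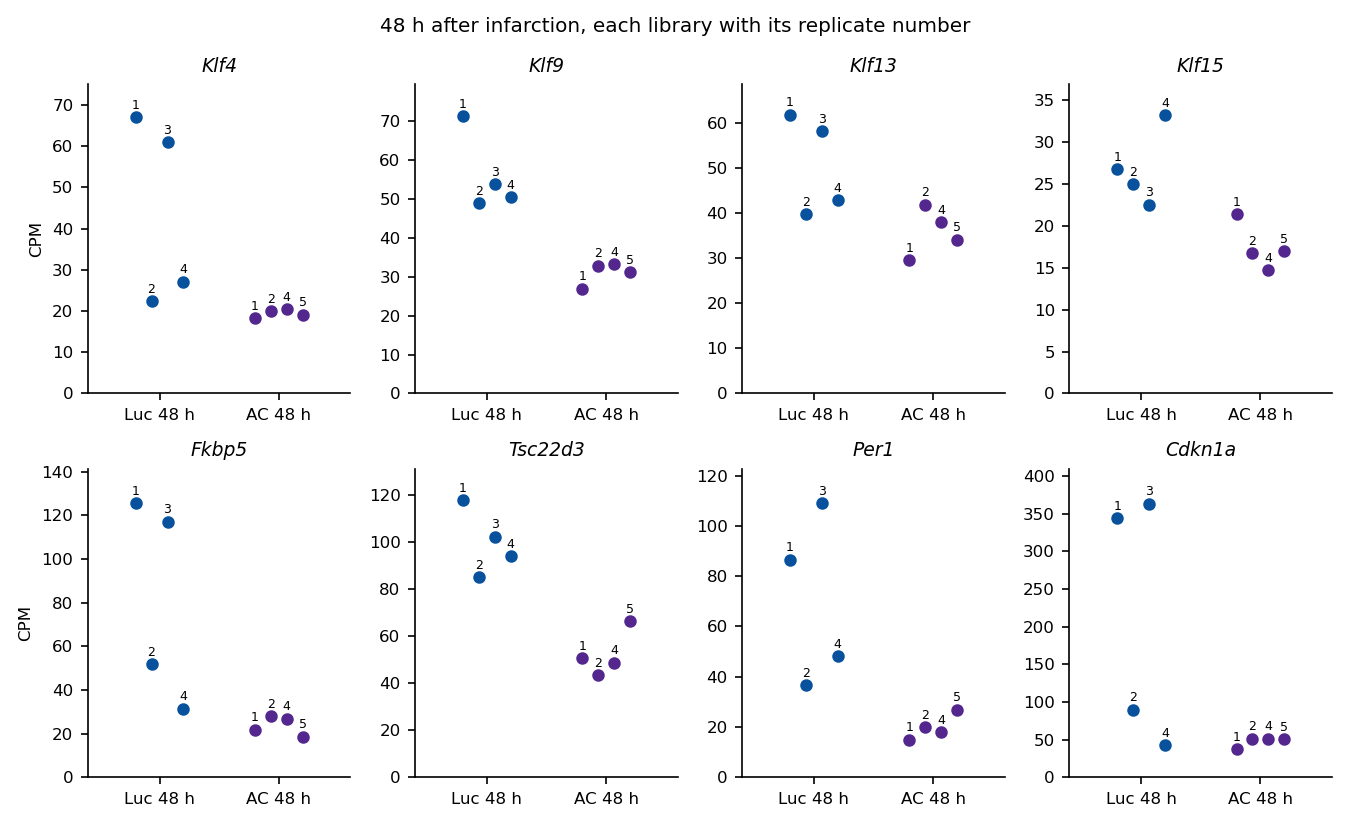
Level in CPM (vertical axis, from 0) of 4 Kruppel-like factors and 4 glucocorticoid receptor targets in the Luc and AC hearts at 48 h, with each heart's replicate number above its point. Luc hearts 1 and 3 are the highest for Klf4, Fkbp5, Per1 and Cdkn1a, and for Klf9 and Klf15 all 4 Luc hearts are above all 4 AC hearts.

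Of the 8 genes in the glucocorticoid receptor list, 7 were lower in AC at 48 h and none higher, with a median of -1.05 against 0.135 for all genes. The list counts the receptor gene Nr3c1, which read 37.0 to 58.1 CPM in Luc and 44.5 to 70.3 CPM in AC. Per1 was lower by 1.66 on the log2 scale (log2 fold change -1.66 ± 0.328, q = 0.00182) and Cdkn1a by 1.63 (-1.63 ± 0.442, q = 0.0169). Cdkn1a read 344, 89.9, 363 and 42.8 CPM in Luc hearts 1 to 4 and 37.5, 51.5, 51.3 and 51.1 CPM in AC, which overlap, with hearts 1 and 3 far above the rest. Tsc22d3, a glucocorticoid-induced anti-inflammatory factor named here, as is Fkbp5 in the plot, after its values were seen, read 118, 85.1, 102 and 93.8 CPM in Luc and 50.7, 43.3, 48.7 and 66.2 CPM in AC, with no overlap. Without Luc hearts 1 and 3 none of the 8 passed, and the median was -0.39 against 0.132 for all genes.

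Of the 9 genes known as raised by KLF15, 5 were lower and none higher in AC at 48 h, with a median of -0.60. Prodh, which starts proline breakdown, was -1.02 ± 0.248 (q = 0.00841). Without Luc hearts 1 and 3 none passed and the median was -0.44. Heart muscle cell markers summed to 28400 to 41040 CPM in Luc and 20380 to 25030 CPM in AC, fibroblast markers to 851 to 1256 and 1469 to 2216 CPM, and macrophage markers to 192 to 255 and 246 to 302 CPM. Their part in the members' differences was not tested.

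Whether the AC effect differed between times was tested as the change of the AC against Luc difference. Between 4 h and 24 h no member passed, against 0.00796% of all genes, with Klf15 at -0.68 ± 0.279 and Klf11 at -0.61 ± 0.224 (q = 1 for both). Of all genes, 379 had an unadjusted p under 0.05. Between 4 h and 48 h Klf9 passed, at -1.04 ± 0.27 (q = 0.0336), against 3.35% of all genes. Klf15 was next, at -0.81 ± 0.258 (q = 0.088). Of all genes 2.88% were called higher and 0.47% lower. The Klf9 call held only without AC heart 1, 3 or 4 at 4 h or Luc heart 2 or 4 at 48 h, and leaving out any other heart of the 16 gave -0.90 to -1.09 and no call. AC heart 2 at 4 h, the highest of its group for Klf9, gave the -0.90.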

How the data were processed

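The authors mapped poly(A) RNA reads with STAR (mm10), quantified RefSeq transcripts by expectation-maximisation in Partek and normalised by TMM. They deposited CPM in the first table and CPM plus 1 in the second, from which 1 was subtracted here. The methods describe this pipeline for the first table, and the build is named in the submitters' processing notes. The methods give a mean read number over samples; strand use in counting and the depth of each library are not given in the sources used here. Total reads were estimated from the CPM worth of 1 read (0.0313 to 0.0479 and 0.0241 to 0.042), which made 83.2 to 87.6% of values under 1 CPM whole within 0.05 reads, so counts were not recovered. Each table was fitted alone with limma 3.58.1 in R 4.3.3, with trend, on log2(CPM + 1), with all its groups and no covariate, leaving out genes whose mean was under 1 CPM (12487 and 12555 tested), with Benjamini-Hochberg adjustment over all of them and calls at q under 0.05. Fold changes on this scale understate low genes. Levels per kb used the union of a gene's exons in the GENCODE basic annotation. Replicates are separate libraries, and the labels do not say that each is another mouse, so p-values measure the spread between libraries. No 2 libraries of the same group agreed within counting noise, and pairs across groups were not compared in this way. The fit was tested on simulated data. Members and gene lists were chosen with earlier results of these data known. Genes of lists are named where called with the largest or smallest fold change, at most 2 each way (some that this rule names are not reported here), and genes most like a member by the smaller of their correlations in both tables. Alternatives were another pseudocount, no filter, no trend, library weights, 2 scalings, only the groups compared, each library left out and a replicate block. Leaving out pairs of 48 h Luc hearts, and recounting lists under scalings and left-out libraries, were added after the data were seen.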

Additional observations from a re-analysis of the deposited data

Results flagged for a closer look

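Among 50 groups of a member's values with 4 libraries, 2 held a library far from the other 3, and chance flags about 1 in 20: Klf11 at 13.03 CPM in AC heart 4 at 4 h, and Klf9 at 103.6 CPM in AC heart 2 at 4 h. The effect of MI differed between 24 h and 4 h for 7 members by a test of that difference, at -0.999 for Klf4, 1.417 for Klf5, 0.953 for Klf6, -1.829 for Klf9, 0.741 for Klf10, -0.555 for Klf11 and -1.624 for Klf15 (log2 scale). Klf5 entered the test only through its 24 h level, so its difference is a description. The AC against Luc difference of Klf9 differed between 48 h and 4 h by -1.042.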

How the results depend on the processing

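No member that passed changed direction under an alternative. Members that passed were 2 at 4 h after MI without modRNA, 0 to 2 with 1 library left out and 5 with library weights; 6 at 24 h against sham (5 to 7) and 7 at 24 h against 4 h (6 to 7). For Luc against sham they were 0 at 4 h (0 to 1 with 1 library left out; 2 with only the groups compared), 4 at 24 h (0 to 5; 2 under equal-total and 2 under median-ratio scaling) and 2 at 48 h (1 to 4; 1 with library weights, 1 with only the groups compared, 4 under each of the 2 scalings, 5 without Luc hearts 2 and 4). Luc at 24 h against 4 h gave 4 (3 to 4; 2 under each scaling), and Luc at 48 h against 24 h gave 4 (4 to 5; 7 with library weights, 2 with equal totals, 7 without Luc hearts 1 and 3). Of all genes 32.3% passed for the former, 28.2% with equal totals and 30% under median-ratio scaling. For the latter 41.9% passed, 53.3% with library weights and 33.4% with equal totals. Luc at 24 h against sham gave 34.1%, 34.3% with equal totals and 34.4% under median-ratio scaling. Luc at 4 h against sham gave 1.55%, and 4.76% with only the groups compared. AC against Luc at 48 h gave 4 (1 to 4; 2 with library weights, 2 with only the groups compared, 0 without Luc hearts 1 and 3), and its difference from 4 h gave 1 (0 to 1; 2 with library weights, 2 under median-ratio scaling, 2 with only the groups compared, 0 without Luc hearts 1 and 3, 4 without hearts 2 and 4). Of all genes 15.3% passed for AC against Luc at 48 h, and 25.3% with library weights. The share was 11% with only the groups compared and 2.76% without Luc hearts 1 and 3. The difference from 4 h gave 3.35%, 12.9% with library weights, 3.58% under median-ratio scaling and 4.69% with only the groups compared. It gave 0.406% without Luc hearts 1 and 3 and 17.8% without hearts 2 and 4. The labels do not say whether same-numbered hearts belong together (correlations of their deviations -0.206 to 0.345). With the replicate block 0 members passed for AC against Luc at 48 h, 8 for MI at 24 h against sham, 7 for 24 h against 4 h, and 0 for Luc at 4 h against sham and for AC against Luc at 4 h and 24 h. That block called 2.01% of all genes for AC against Luc at 48 h, against 15.3% in the main fit. It called 3.17% for Luc at 4 h against sham, against 1.55%. For the MI comparisons the share with the block is not reported here, and 66% and 63.9% passed in the main fit. Over all genes, 296 passed at 4 h without modRNA, 2500 with library weights and 715 with only the groups compared. Except where fewer libraries enter a fit, the cause was not tested. Klf5, at 3 to 32 reads per library in the modRNA experiment, is too shallow there for a small change to be seen.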

Other observations

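Genes were ranked by how closely they followed each member over the libraries of both tables, by the smaller of 2 Pearson correlations of log2 values over 10 and 24 libraries, among 12259 genes. These are descriptions across groups, with no test. Klf15 was followed most closely by Fem1a (0.931), Agtrap (0.921) and Mfn2 (0.918), the last a protein of mitochondrial fusion. Klf9 was followed by Tbcel (0.926), Adgrf5 (0.921) and Clpx (0.916), the last a part of a mitochondrial protease. Klf6 went with Gna13 (0.91), a G protein subunit, Txnrd1 (0.877), a redox enzyme, and Chd7 (0.866). Klf10 went with Runx3 (0.869), Vat1 (0.866) and Galnt6 (0.862), and Klf13 with Slc44a2 (0.895). Klf4 was closest to Mmp2 (0.813), a matrix protease, Klf11 to Spsb1 (0.839) and Txnip (0.819), Klf3 to Ncoa3 (0.78) and Klf2 to Cdc42ep4 (0.725).

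The immediate early genes, the class to which Klf4, Klf6 and Klf10 are often counted, were higher for 11 of 14 listed at 4 h and 14 of 14 at 24 h in the hearts without modRNA. Of all genes tested, 1.55% were higher at 4 h and 35.6% at 24 h. Fos was at 4.25 ± 0.349 at 4 h (q = 5.17e-05) and Myc at 4.32 ± 0.149 at 24 h (q = 1.6e-08). In the Luc hearts at 24 h, where 25.3% of all genes were higher, Junb was at 4.40 ± 0.475 (q = 8e-07). The count of the list in those hearts is not reported here.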
